A study of Homo sapiens with 4 samples.

Results

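The MMP, ADAMTS and TIMP genes encode secreted and cell-surface metalloproteinases that cut the extracellular matrix, and their natural protein inhibitors. They were picked from the deposited gene tables by symbol alone, as MMP or ADAMTS followed by a number (with an optional letter for MMP) or as TIMP1 to TIMP4. The rule found 46 genes among 23444 entries, of which 23 were MMP, 19 were ADAMTS and 4 were TIMP genes. The 4 RNA-seq libraries came from U87-MG, a human cell line long established from a glioblastoma. Of these, 2 (shMAGED2) were from cells with a hairpin against MAGED2, a MAGE-family gene on the X chromosome, and 2 (shCON) from cells with a negative control hairpin. The design text describes a stable knockdown, while the treatment protocol names ZDHHC15 as the hairpin target and a transient transfection; which of the 2 applies was not resolved. How many hairpins and clones were used is not stated.

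Matrix metalloproteinases (MMPs) are zinc enzymes made as inactive precursors, and most are secreted, whereas the membrane-type MMPs stay on the cell surface. ADAMTS enzymes share the catalytic fold but carry thrombospondin repeats, and several of them cut large proteoglycans such as versican and brevican, which are abundant in brain matrix. TIMPs bind and block the active site of these enzymes, and TIMP2 also helps the membrane enzyme MMP14 to activate MMP2. In glioma these genes are known mainly for matrix breakdown during invasion.

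The total count per library was 28673774 to 36234336, and 17001 to 17312 genes had at least 1 count. MAGED2 had 526 and 795 counts in the shMAGED2 libraries and 6090 and 5225 in the shCON libraries, a log2 change of -3.16 (SE 0.13), and ZDHHC15 had 0 counts in all 4. The mesenchymal markers VIM, CD44, FN1, SPARC and CHI3L1 had between 7881 and 278225 counts in every library, whereas the glial markers were low, with 28 to 89 counts for GFAP, 52 to 180 for OLIG2 and 0 to 4 for SOX2. Markers of other cell types were partly present. Among immune markers CD68 had 13417 to 17723 counts and CSF1R 164 to 274, whereas PTPRC had 0 to 30, CD14 0 to 23, CD3E 0 to 7 and AIF1 0. Among neuronal markers SNAP25 had 292 to 558 counts, SYP 13 to 29, RBFOX3 0 to 22 and STMN2 0. Epithelial CLDN4 had 54 to 105 counts and EPCAM 11 to 21, with CDH1, KRT5 and KRT14 at 0, and endothelial KDR had 204 to 371, with 0 to 67 for VWF, PECAM1 and CDH5. Of the markers tested, NES rose by 1.88 on the log2 scale (SE 0.18), and OLIG2 (-1.45, SE 0.27), CHI3L1 (-0.45, SE 0.12) and KDR (-0.68, SE 0.18) fell; their part in the results was not tested. The shMAGED2 pair differed more than the shCON pair, with a chi-square per degree of freedom of 89.48 between the shMAGED2 libraries and 7.42 between the shCON libraries, and S100A6, for example, had 6050 counts in shMAGED2 replicate 1 and 24329 to 32709 in the other 3 libraries. The labels do not state that replicates were separate cultures, so the p-values cover the spread between these libraries, which may be technical. In a bulk sample, fewer cells that express a gene and less RNA per cell cannot be told apart.

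Of the 46 genes, 29 passed the filter on low counts and were tested, 12 had 0 counts in every library, and the other 5 had 3 to 21 counts in total. Among the 29 tested, 3 rose and 8 fell in shMAGED2 libraries at an adjusted p under 0.05 (edgeR quasi-likelihood test, Benjamini-Hochberg over 15293 genes), which is 37.9% of them, against 23.9% of all genes tested. By direction, 12.3% of all genes tested rose and 11.6% fell. The families were chosen with earlier results of these data known, so the share called among members is a description. The groups did not overlap for 20 of the 29 (7 higher, 13 lower in shMAGED2), or 69.0%, against 66.0% of all genes tested, so this share was near the background. The median log2 change was -0.23 over the 29 members and 0.003 over all genes tested. The members that rose were MMP3, ADAMTS18 and TIMP2, and those that fell were MMP15, MMP19, ADAMTS1, ADAMTS5, ADAMTS13, TIMP1, TIMP3 and TIMP4.

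**Figure D1:**
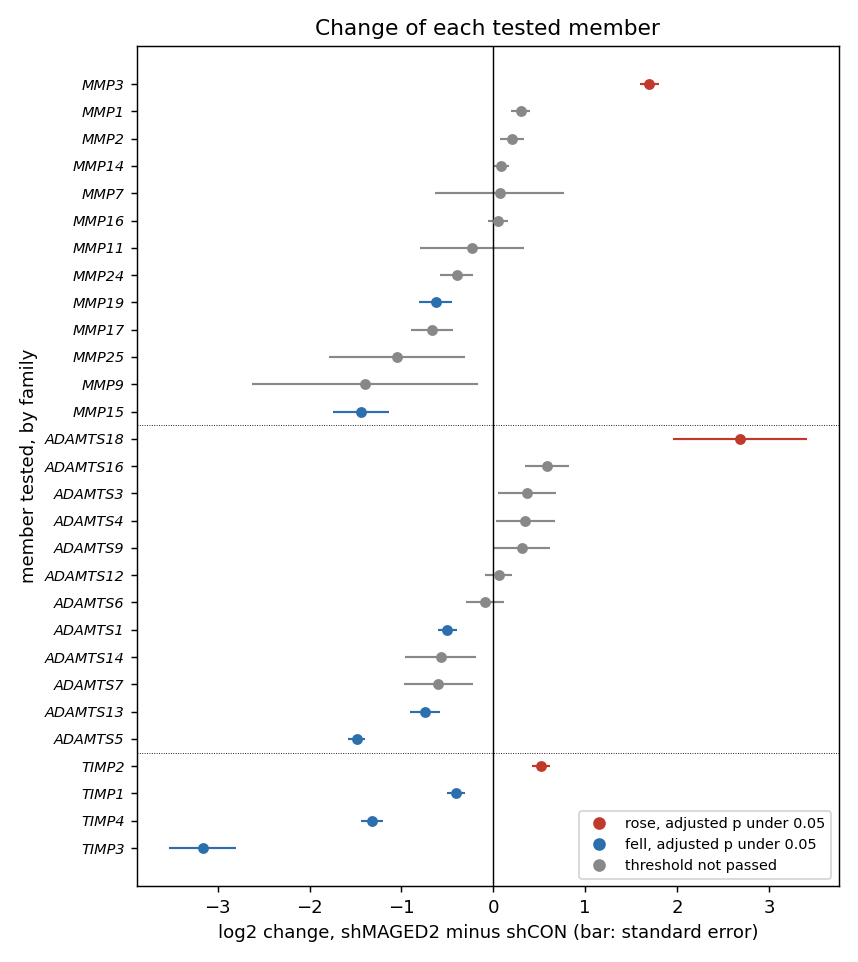
Log2 change of each tested member, shMAGED2 minus shCON (x axis), with its standard error as a bar, by family (y axis, n = 2 libraries per group). MMP3 stands apart among MMP genes at 1.70, ADAMTS5 is the lowest ADAMTS gene at -1.49, and TIMP3 has the lowest value of all, -3.17.

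Levels differed widely between members. FPKM, which scales fragments by gene length and library total, allows levels to be compared between genes. MMP2 had the highest level in every library, with 779 and 657 FPKM in shMAGED2 against 663 and 642 FPKM in shCON. TIMP1 came next, at 248 and 235 FPKM in shMAGED2 against 330.1 and 334 FPKM in shCON, and then MMP14. In shMAGED2 libraries TIMP2, MMP3, MMP1, ADAMTS1 and ADAMTS5 followed, all between 18.5 and 77.2 FPKM. In shCON libraries these 5 and TIMP4 lay between 22.7 and 59.9 FPKM. In both groups 15 members averaged at least 1 FPKM. The remaining members, and TIMP4 in shMAGED2 libraries, lay at 10.9 FPKM or below.

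**Figure D2:**
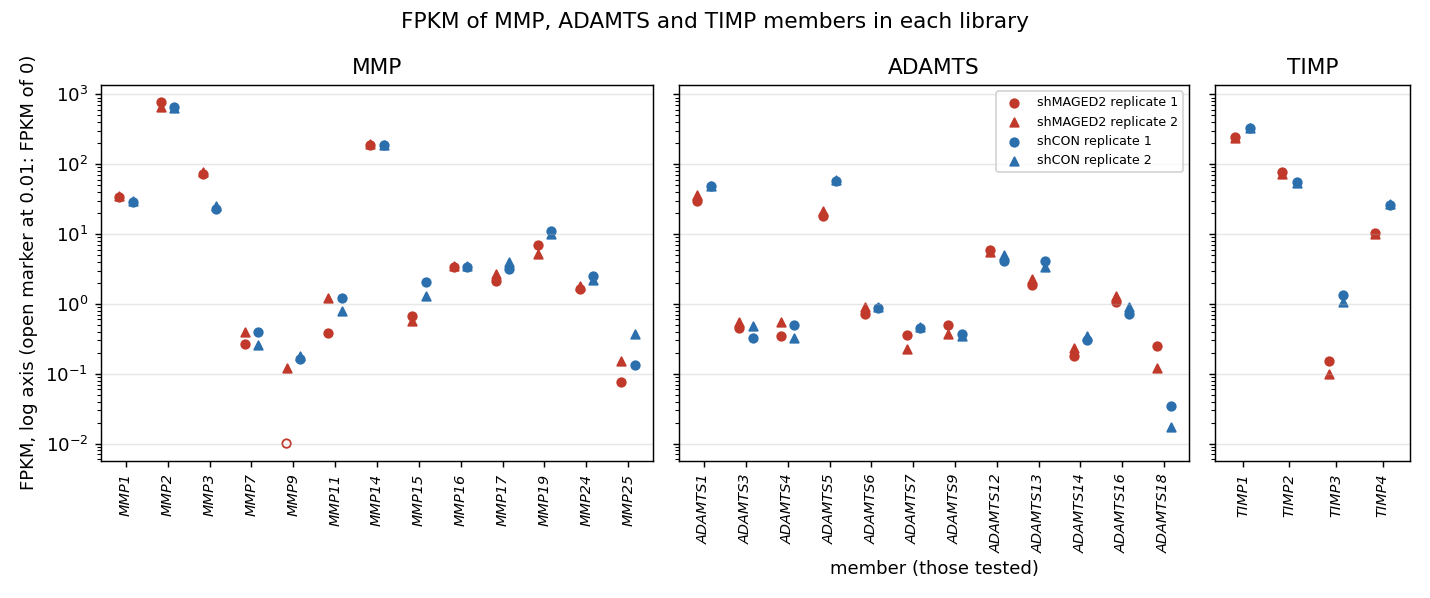
FPKM of the 29 tested members in each library on a log axis, by family, with shMAGED2 libraries in red and shCON libraries in blue, circles and triangles for replicates 1 and 2, and an open marker for a value listed at 0. MMP2, TIMP1 and MMP14 have the highest levels, and the groups are far apart for MMP3, ADAMTS5, TIMP3 and TIMP4.

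Among MMP genes, 1 of 13 tested rose, 2 fell and 10 did not pass the threshold, with a median log2 change of -0.23. Of all genes tested, 23.9% passed, so the share among MMP genes was near the background. MMP3, or stromelysin-1, which cuts proteoglycans and fibronectin and can activate other MMPs, had 4707 and 5848 counts in shMAGED2 libraries and 1630 and 1518 in shCON libraries. Scaled to library size by TMM, these were 159.8 and 159.3 CPM (counts scaled to a common library total) in shMAGED2, against 46.7 and 51.8 CPM in shCON. Both shMAGED2 libraries were thus close to each other and well above both shCON libraries. MMP3 rose by 1.70 on the log2 scale (SE 0.10, edgeR adjusted p = 0.000775), or 3.24-fold.

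MMP3 (ENSG00000149968) lies on the minus strand of chromosome 11 at 102835801 to 102843803 (hg38, GENCODE 29), in a cluster of 9 members. Its neighbour MMP1 (102789920 to 102798160) begins 37.6 kb away and encodes interstitial collagenase, which cuts fibrillar collagen. MMP1 had 74.1 and 70.0 CPM in shMAGED2 libraries, against 57.5 and 59.8 CPM in shCON libraries. The groups of MMP1 did not overlap, but its log2 change of 0.30 (SE 0.10) did not pass the threshold (edgeR adjusted p = 0.0830). In FPKM, the ratio of MMP3 to MMP1 was 2.11 and 2.23 in shMAGED2 libraries and 0.795 and 0.847 in shCON libraries, so the order of these neighbours was opposite in the 2 groups. Of the other 7 cluster members, MMP8, MMP13, MMP20 and MMP27 were at 0 counts in all 4 libraries. MMP12 had 0 and 3 counts in shMAGED2 and 0 in both shCON libraries, and MMP10 had 0 and 2 counts in shMAGED2 and 8 and 0 in shCON. MMP7, or matrilysin, had 10 and 17 counts in shMAGED2 and 16 and 9 in shCON. A count of 0 allows up to 0.0817 to 0.102 CPM, depending on the library (3 counts, counting error only). The non-coding gene WTAPP1 overlaps exons of MMP1 and MMP3 on the opposite strand, and whether the authors counted by strand is not known here. Annotated antisense genes likewise overlap exons of MMP9, MMP16, MMP25, ADAMTS3, ADAMTS9, ADAMTS18 and TIMP2.

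The gelatinase MMP2, which degrades denatured and basement-membrane collagen, had 3185 and 2513 CPM in shMAGED2 libraries, against 2524 and 2438 CPM in shCON libraries. The groups overlapped, and the log2 change of 0.20 (SE 0.13) did not pass (edgeR adjusted p = 0.321). The other gelatinase, MMP9, had 0 and 11 counts in shMAGED2 and 14 and 13 counts in shCON. Its log2 change of -1.40 had an SE of 1.23 and did not pass. With 1 library left out it ran from -6.73 to -0.49, the lowest value being against the single shMAGED2 library at 0 counts, where a fitted change depends on the prior count.

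Of the membrane-type MMPs, MMP14, MMP15, MMP16, MMP17, MMP24 and MMP25 were tested, and only MMP15 of these passed. MMP14, the main activator of MMP2, had 781 and 734 CPM in shMAGED2 libraries, against 710.1 and 720.3 CPM in shCON libraries, and its log2 change was 0.08 (SE 0.09, edgeR adjusted p = 0.537). MMP15 (chromosome 16, 58025566 to 58046901, plus strand) had 86 and 91 counts in shMAGED2 and 311 and 167 in shCON. This was 2.92 and 2.48 CPM in shMAGED2, against 8.91 and 5.69 CPM in shCON, with the shCON libraries apart from each other and both higher. MMP15 fell by 1.44 in log2 (SE 0.30, edgeR adjusted p = 0.0223).

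MMP16 had 43.5 and 40.6 CPM in shMAGED2 and 40.3 and 40.8 CPM in shCON, values that overlapped between the groups. MMP17, which is held by a lipid anchor, averaged 5.00 ± 0.21 CPM in shMAGED2 and 7.93 ± 1.41 CPM in shCON (SD, n = 2 each), with a log2 change of -0.66 (SE 0.23, edgeR adjusted p = 0.0856). MMP24 had a log2 change of -0.40 (SE 0.18), and MMP25, with 9 to 40 counts per library, one of -1.05 (SE 0.74), which ran from -1.62 to -0.14 with 1 library left out. The changes of MMP16, MMP24 and MMP25 did not pass the threshold. MMP24OS, on the opposite strand, has exons that overlap MMP24 and held 1456 to 2101 counts per library, more than the 234 to 396 of MMP24.

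Among the remaining secreted MMPs, MMP19, which cuts basement-membrane components, averaged 22.6 ± 4.86 CPM in shMAGED2 libraries and 34.9 ± 1.86 CPM in shCON libraries (SD, n = 2 each). The shMAGED2 values were 26.0 and 19.2 CPM and the shCON values 36.3 and 33.6 CPM, without overlap. MMP19 (chromosome 12, 55835433 to 55842966) fell by 0.63 in log2 (SE 0.18, edgeR adjusted p = 0.0497), just inside the threshold. MMP11, stromelysin-3, had 29 and 100 counts in shMAGED2 and 98 and 46 in shCON, so that replicates differed more than the groups. MMP21, MMP26 and MMP28 were at 0 counts in all 4 libraries, and MMP23B, which has a near-identical duplicate, had 0 to 3 counts. Exons of MMP19 and MMP11 overlap those of TMEM198B and CHCHD10 on the opposite strand.

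The calls of MMP15 and MMP19 did not hold in every fit with 1 library left out. Without a shCON library, the spread within groups came from the shMAGED2 pair alone, which differed more. Without shCON replicate 1, the log2 changes were -1.08 for MMP15 (edgeR adjusted p = 0.164) and -0.58 for MMP19 (adjusted p = 0.248), and without shCON replicate 2, MMP19 was at -0.68 (adjusted p = 0.156). Without shMAGED2 replicate 2, the log2 changes of MMP1, MMP2, MMP14 and MMP17 were 0.34, 0.36, 0.13 and -0.71. Without shMAGED2 replicate 1, that of MMP1 was 0.26. In these fits the spread was estimated from the shCON pair alone, the pair that differed less. MMP3 passed with each library left out, at 1.62 to 1.77.

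Among ADAMTS genes, 1 of 12 tested rose, 3 fell and 8 did not pass, with a median log2 change of -0.02. Over all genes tested, 12.3% rose and 11.6% fell. The most abundant ADAMTS transcripts, ADAMTS5 and ADAMTS1, both fell; they are neighbours on the minus strand of chromosome 21 (26917912 to 26966513 and 26835747 to 26845409, 72.5 kb apart). ADAMTS5, or aggrecanase-2, which cuts aggrecan, versican and brevican, had 5400 and 7371 counts in shMAGED2 libraries and 18329 and 16212 in shCON libraries. In CPM these were 183.4 and 200.7 in shMAGED2, against 525 and 553 in shCON. The 4 libraries formed 2 well separated pairs, and ADAMTS5 fell by 1.49 in log2 (SE 0.10, edgeR adjusted p = 0.000839).

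ADAMTS1, which cuts versican and also binds VEGF, had 168 and 193 CPM in shMAGED2 libraries, against 254 and 256 CPM in shCON libraries. ADAMTS1 fell by 0.50 (SE 0.10, edgeR adjusted p = 0.0207). Per length, ADAMTS5 lay below ADAMTS1 in both shMAGED2 libraries, at 18.5 and 21.6 FPKM for ADAMTS5 against 29.7 and 36.5 FPKM for ADAMTS1. In shCON libraries ADAMTS5, at 57.0 and 59.9 FPKM, exceeded ADAMTS1, at 48.2 and 48.5 FPKM. The related proteoglycan-cutting enzymes ADAMTS4 (log2 change 0.35, SE 0.32) and ADAMTS9 (0.31, SE 0.30) lay at 2.73 to 5.47 CPM in all libraries, did not pass and overlapped between the groups. ADAMTS8, ADAMTS15 and ADAMTS20 were at 0 counts in all 4 libraries.

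ADAMTS13, which cuts von Willebrand factor in blood plasma, had 9.20 and 9.83 CPM in shMAGED2 libraries, against 16.5 and 15.3 CPM in shCON libraries. ADAMTS13 fell by 0.74 (log2, SE 0.16, edgeR adjusted p = 0.0246; chromosome 9, 133414358 to 133459402). REXO4, which overlaps ADAMTS13 on the opposite strand without shared exonic bases, rose by 0.50 (SE 0.12). ADAMTS18 (chromosome 16, 77247813 to 77435114) was the member that rose, from few counts. It had 49 and 28 counts in shMAGED2 libraries and 8 and 4 counts in shCON libraries, a log2 change of 2.68 (SE 0.73, edgeR adjusted p = 0.0453). Its levels were 0.251 and 0.122 FPKM in shMAGED2 and 0.034 and 0.017 FPKM in shCON, so it stayed among the lowest members in both groups.

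The procollagen N-proteinases, which trim the ends of new collagen molecules, did not pass. ADAMTS3 had a log2 change of 0.37 (SE 0.31) and ADAMTS14 one of -0.58 (SE 0.38), and ADAMTS2 was at 0 counts in all 4 libraries. ADAMTS12, at 41.5 and 35.8 CPM in shMAGED2 and 33.7 and 40.6 CPM in shCON, and ADAMTS7 (log2 change -0.60, SE 0.38), both known to cut cartilage oligomeric matrix protein, did not pass either. ADAMTS6 had a log2 change of -0.09 (SE 0.21). ADAMTS16 had 5.13 and 6.15 CPM in shMAGED2 libraries, against 3.55 and 3.99 CPM in shCON libraries, without overlap, and a log2 change of 0.58 (SE 0.24, edgeR adjusted p = 0.138). ADAMTS10 had 0 to 3 counts per library, ADAMTS17 had 19 and 0 counts in shMAGED2 and 2 and 0 in shCON, and ADAMTS19 was at 0 counts.

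The calls of ADAMTS1, ADAMTS13 and ADAMTS18 ended without shCON replicate 1, at log2 changes of -0.51, -0.69 and 3.11 and edgeR adjusted p-values of 0.189, 0.204 and 0.142. They ended likewise without shCON replicate 2, at -0.49, -0.79 and 2.38 (adjusted p = 0.200, 0.133 and 0.200), and ADAMTS18 also missed the threshold without shMAGED2 replicate 1, at 2.03 (adjusted p = 0.173). ADAMTS5 passed with each library left out, at -1.56 to -1.42.

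All 4 TIMP genes passed the threshold, against 23.9% of all genes tested, with 1 higher and 3 lower in shMAGED2 libraries. TIMP3, which binds to the matrix and inhibits ADAMTS and ADAM enzymes as well as MMPs, had 23 and 18 counts in shMAGED2 libraries and 220 and 148 in shCON libraries. In CPM this was 0.781 and 0.490 in shMAGED2, against 6.31 and 5.05 in shCON, with no overlap. TIMP3 (chromosome 22, 32801701 to 32863043, plus strand) fell by 3.17 in log2 (SE 0.36, edgeR adjusted p = 0.00346), which was the largest change among the 29 members tested. TIMP4, an inhibitor with narrow tissue expression that includes brain, had 18.8 and 17.2 CPM in shMAGED2 libraries, against 44.2 and 45.8 CPM in shCON libraries. TIMP4 (chromosome 3, 12153051 to 12159351, minus strand) fell by 1.32 (SE 0.12, edgeR adjusted p = 0.00190).

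TIMP1, the most abundant inhibitor here, which blocks most secreted MMPs and does so poorly for the membrane-type MMP14, had 241 and 215 CPM in shMAGED2 libraries, against 300.2 and 303 CPM in shCON libraries. TIMP1 fell by 0.40 (SE 0.10, edgeR adjusted p = 0.0330; chromosome X, 47582313 to 47586789). TIMP2, the partner of MMP14 in MMP2 activation, was higher instead, at 308 and 274 CPM in shMAGED2 libraries, against 204.6 and 203 CPM in shCON libraries. It rose by 0.51 (SE 0.10, edgeR adjusted p = 0.0163; chromosome 17, 78852977 to 78925387). The ratio of TIMP1 to TIMP2 in FPKM was 3.21 and 3.19 in shMAGED2 libraries and 5.99 and 6.11 in shCON libraries.

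The calls of TIMP1 and TIMP2 ended without shCON replicate 1, at log2 changes of -0.41 (edgeR adjusted p = 0.289) and 0.52 (adjusted p = 0.198), and without shCON replicate 2, at -0.40 (adjusted p = 0.310) and 0.51 (adjusted p = 0.199). TIMP1 also missed the threshold with the replicate number as a block (adjusted p = 0.0537) and in limma on log2(FPKM + 1) (adjusted p = 0.0523). TIMP3 and TIMP4 passed with each library left out, at -3.52 to -2.86 and at -1.39 to -1.26.

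In the annotation, TIMP1, TIMP3 and TIMP4 each lie inside a synapsin gene on the opposite strand, SYN1, SYN3 and SYN2, which encode synaptic vesicle proteins. SYN1 had 45 and 44 counts in shMAGED2 libraries and 110 and 122 in shCON libraries and fell by 1.42 in log2 (SE 0.34, edgeR adjusted p = 0.0310). SYN2 had 33 and 25 counts in shMAGED2 and 119 and 83 in shCON and fell by 1.80 (SE 0.40, edgeR adjusted p = 0.0258). SYN3 had 0 and 3 counts in shMAGED2 and 0 in both shCON libraries. Exons of TIMP4 and SYN2 overlap, while those of TIMP1 and TIMP3 do not overlap the synapsin exons. Without the strand setting, reads of TIMP4 and SYN2 over shared bases cannot be told apart. TIMP4 held 555 to 1542 counts per library, and how many of these came from shared bases was not tested.

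Sequences before the transcript start were at hand in RefSeq's promoter table (GRCh38.p14) for 27 of the 46 members. Among members past the threshold, those of MMP3, MMP19, ADAMTS1, ADAMTS5 and TIMP2 were not analysed here, nor was that of MMP1. Sequences are shown for TIMP3, the member that changed most, and beside it for TIMP1, which also fell, and ADAMTS18, which rose, limited to bases outside annotated exons. Capitals mark the GC box GGGCGG or its reverse complement CCGCCC, a motif known to bind Sp1-type factors.
TIMP3: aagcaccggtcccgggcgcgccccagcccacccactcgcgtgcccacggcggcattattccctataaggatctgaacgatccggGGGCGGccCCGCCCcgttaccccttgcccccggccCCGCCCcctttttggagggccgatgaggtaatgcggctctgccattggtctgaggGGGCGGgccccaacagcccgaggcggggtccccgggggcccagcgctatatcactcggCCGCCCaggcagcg
TIMP1: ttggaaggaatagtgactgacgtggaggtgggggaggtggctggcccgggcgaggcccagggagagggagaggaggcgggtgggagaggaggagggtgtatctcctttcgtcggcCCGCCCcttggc
ADAMTS18: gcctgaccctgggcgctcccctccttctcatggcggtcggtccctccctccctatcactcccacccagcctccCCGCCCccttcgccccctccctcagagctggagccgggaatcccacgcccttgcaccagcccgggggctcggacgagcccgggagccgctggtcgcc
These run 5′ to 3′ on the gene's strand, at chr22:32801455-32801700 (plus) for TIMP3, chrX:47582186-47582312 (plus) for TIMP1 and chr16:77435115-77435284 (minus) for ADAMTS18. The TIMP3 stretch of 246 bases held 5 GC boxes and 25 CpG dinucleotides at 72.0% G and C, and the stretches of TIMP1 (127 bases) and ADAMTS18 (170 bases) held 1 GC box each.

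In the full 250 bases before the start, searched on both strands, 19 of the 27 members held a GC box, against 42.6% of 35116 promoters of the same length. By family, 5 of 12 MMP, 11 of 12 ADAMTS and 3 of 3 TIMP promoters held one. Their G and C content was 32.8% to 77.6% for MMP, 52.4% to 80.8% for ADAMTS and 62.8% to 72.4% for TIMP genes, against a median of 58.0% over all promoters. A GC box was present in 13 of the 15 tested members with a sequence, including the 6 past the threshold (MMP15, ADAMTS13, ADAMTS18, TIMP1, TIMP3 and TIMP4). The windows of ADAMTS13 and TIMP4 lay wholly within annotated exons. In that of MMP15 the longest stretch outside exons was 62 bases. Over the full window TIMP3 and MMP15 held 5 GC boxes each, TIMP1 and ADAMTS13 held 2 each, and ADAMTS18 and TIMP4 held 1 each. Among members that did not pass, ADAMTS7, ADAMTS14, MMP11 and MMP24 held several each, and ADAMTS3, ADAMTS12 and MMP14 held 1 each. Whether the number of boxes goes with the change was not tested. The AP-1 motif TGAGTCA was found in 1 of the 27, MMP7 at 67 bases before the start, and in 4.20% of all promoters. The ETS motif AGGAAG was found in 6 of the 27 (MMP7, ADAMTS10, ADAMTS12, ADAMTS13, TIMP1 and TIMP4) and in 28.7% of all promoters. The forward TATA box TATAAA was found in 6 of the 27, all of them MMP genes, and in 6.80% of all promoters, and only MMP7 of these 6 passed the count filter.

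Summed over each family, the FPKM of MMP genes was 1092 and 977 in shMAGED2 libraries, against 927 and 909 in shCON libraries. MMP2 made up 71.3% and 67.2% of the MMP sum in shMAGED2 and 71.6% and 70.6% in shCON. MMP3 added 72.3 and 77.1 FPKM in shMAGED2 libraries, against 22.7 and 25.2 FPKM in shCON libraries. The ADAMTS sum was 59.9 and 70.1 FPKM in shMAGED2, against 117.0 and 120.6 FPKM in shCON. ADAMTS5 and ADAMTS1 together made up 80.4% and 82.9% of it in shMAGED2 and 89.9% in both shCON libraries. The TIMP sum was 336 and 319 FPKM in shMAGED2, against 413 and 417 FPKM in shCON, and TIMP1 made up 73.9% and 73.7% of it in shMAGED2 and 80.0% and 80.1% in shCON. The ratio of the MMP sum to the TIMP sum was 3.25 and 3.06 in shMAGED2 libraries and 2.24 and 2.18 in shCON libraries. These sums are descriptions of RNA levels and were not tested.

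**Figure D3:**
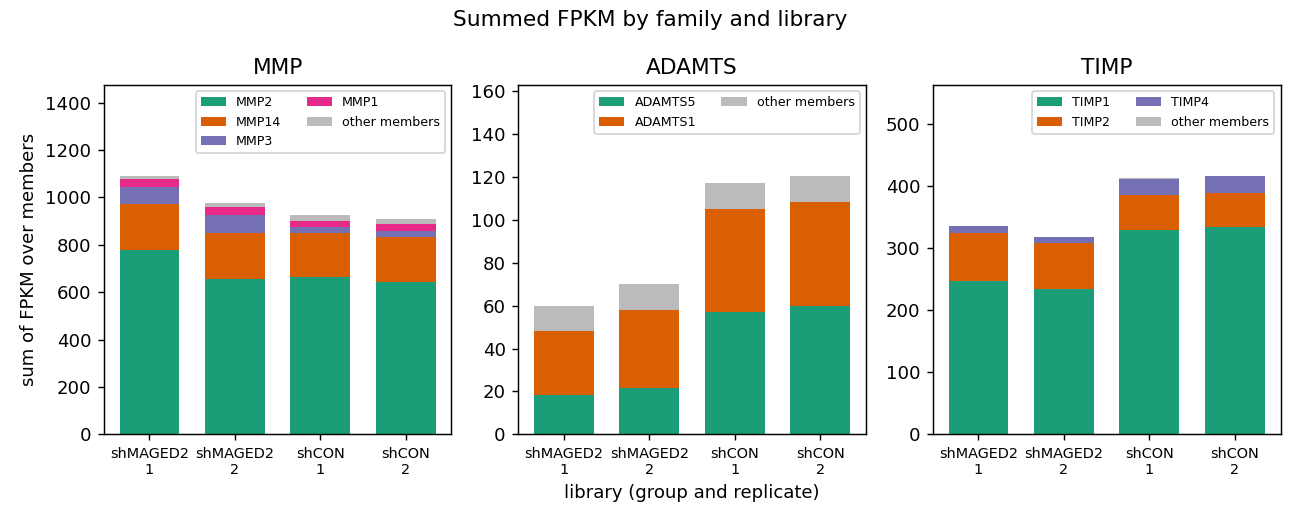
Sum of FPKM over the members of each family (y axis) in each library (x axis, shMAGED2 left of shCON), with the main members as coloured parts of the bar. The ADAMTS bars are lower in both shMAGED2 libraries (59.9 and 70.1 FPKM) than in both shCON libraries (117.0 and 120.6 FPKM), and the MMP bars are mostly MMP2.

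Other genes of the same pathways were counted in 6 lists written from textbook knowledge, but with earlier results of these data known. The shares called in these lists are therefore descriptions and cannot show an excess over all genes tested. Of 60 tested genes in these lists, 13 rose and 10 fell, or 38.3%, against 23.9% of all genes tested (12.3% rose, 11.6% fell). The same background shares apply to the count of each list below. The split depended on the scaling, with 9 higher and 14 lower with library size alone and 10 higher and 12 lower with upper-quartile factors. In the list of proteases that activate latent MMPs or ADAMTS enzymes, which also held the receptor PLAUR, 2 of 7 tested rose. The other 5 did not pass, and the median log2 change was 0.26. Plasminogen (PLG), also listed, was at 0 counts in all 4 libraries. The proprotein convertase PCSK5 rose to 9.05 ± 0.21 CPM in shMAGED2 libraries, against 3.82 ± 0.72 CPM in shCON libraries (SD, n = 2 each), and PCSK7, of the same group, rose by 0.65 on the log2 scale (SE 0.16). Urokinase PLAU (log2 change 0.26, SE 0.09, edgeR adjusted p = 0.104) and its receptor PLAUR (0.11, SE 0.11) did not pass.

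Of 9 tested genes for other inhibitors, clearance receptors and the MMP inducer BSG, 3 rose and 1 fell. The protease inhibitor TFPI2 (log2 change 0.45, SE 0.08), the proteoglycan SPOCK1 (0.86, SE 0.16) and BSG (0.30, SE 0.08) rose, and LRP1, an uptake receptor for MMPs, ADAMTS5 and TIMPs, fell by 0.33 (SE 0.09). RECK, a membrane-anchored MMP inhibitor, had 10.7 and 9.48 CPM in shMAGED2 and 9.92 and 10.5 CPM in shCON and did not pass. Of 10 membrane ADAM genes tested, 1 rose and 2 fell. ADAM12 rose by 1.26 (SE 0.15), and ADAM17, the TNF-releasing enzyme that TIMP3 inhibits, fell by 0.52 (SE 0.10), as did ADAM19, by 0.69 (SE 0.15). Of the ADAMTS-like proteins, which resemble ADAMTS enzymes without the protease domain, 3 were tested: ADAMTSL1 (1.02, SE 0.13) and THSD4 (0.48, SE 0.12) rose, and ADAMTSL4 (-0.07, SE 0.44) did not pass.

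Of 12 tested matrix substrates, 1 rose and 4 fell. Versican, VCAN, a substrate of ADAMTS1 and ADAMTS5, had 216 and 166 CPM in shMAGED2 libraries, against 58.0 and 56.6 CPM in shCON libraries, and rose by 1.74 on the log2 scale (SE 0.15). The collagen chain COL1A1 fell by 1.54 (SE 0.13), and the small proteoglycans LUM and DCN fell by 2.01 (SE 0.30) and 1.75 (SE 0.26). COL1A2 fell as well. Aggrecan (ACAN) and neurocan (NCAN) were at 0 counts in all 4 libraries, and brevican (BCAN) did not pass at -0.08 (SE 0.20).

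Of 19 transcription factors known at MMP promoters, 4 rose and 3 fell. The AP-1 subunits FOSL2 (log2 change 0.73, SE 0.09) and JUN (0.47, SE 0.08) rose. FOSL1 rose with 762 and 423 CPM in shMAGED2 libraries, against 262 and 258 CPM in shCON libraries, so the shMAGED2 libraries were far apart, and its log2 change of 1.19 (SE 0.26) was 0.71 without shMAGED2 replicate 1. The AP-1 subunits FOSB and FOS fell by 2.25 (SE 0.34) and 1.50 (SE 0.26), and ETS1 rose by 0.37 (SE 0.10) while ETS2 fell by 0.75 (SE 0.16). Each change called in the lists had an edgeR adjusted p between 0.00135 and 0.0479. Fewer list genes passed with either shCON library left out, and more passed with either shMAGED2 library left out. The calls over all genes tested moved the same way in these fits, so the shift was not particular to the lists. ADAM12, ADAMTSL1, VCAN, LUM, COL1A1 and FOSB passed with either shCON library left out.

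Of the 11 members called with all 4 libraries, most kept the call with either shMAGED2 library left out, and fewer did with either shCON library left out. Calls over all genes tested also became fewer without either shCON library, and more without either shMAGED2 library. The loss of calls was thus not particular to these members. The 4 that passed with each library left out were MMP3, ADAMTS5, TIMP3 and TIMP4. None of the 11 changed direction in these 4 fits. The groups did not overlap for any of the 11, so leaving out 1 library could hardly reverse a direction. Without a shCON library, the spread within groups was estimated from the shMAGED2 pair alone, which is the pair that differed more, and the lone shCON library was assumed to vary like that pair. Without a shMAGED2 library, the spread came from the shCON pair alone, which differed less. The lone shMAGED2 library was then assumed to vary as little. Passing in those fits therefore says little about the spread between shMAGED2 libraries.

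**Figure D4:**
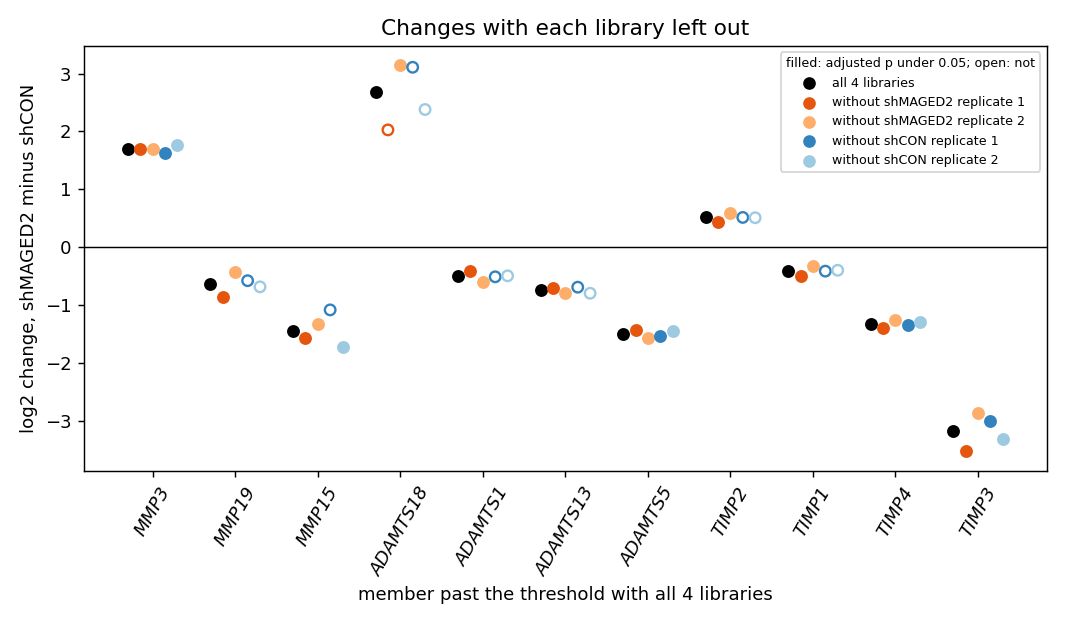
Log2 change, shMAGED2 minus shCON (y axis), of the 11 members past the threshold (x axis) with all 4 libraries in black and with each library left out in colour, filled where the adjusted p was under 0.05. MMP3, ADAMTS5, TIMP3 and TIMP4 are filled throughout, and ADAMTS18 ranges from 2.03 to 3.14.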

How the data were processed

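Per gene, the authors deposited raw counts and FPKM values for the 4 libraries. The submitters' processing notes name hg38 and the tools HISAT2, SAMtools and StringTie; the annotation, the strand setting and the treatment of multiply matching reads are not given in these sources. Libraries were grouped by their titles. Counts were tested in edgeR 4.0.16 (R 4.3.3) with filterByExpr, TMM scaling and a robust quasi-likelihood fit of group over 15293 genes, with Benjamini-Hochberg adjustment and a threshold of 0.05. The test was two-sided, with 2 residual degrees of freedom, and was tried on simulated data. Standard errors were derived from the F statistic. Alternatives used other scalings, DESeq2 1.42.0, limma 3.58.1 on log2(FPKM + pseudocount), other filters, leaving out each library and a replicate block. A fold on the log2(FPKM + 1) scale understates changes of low genes. Every tested member was named; of each list, up to 3 genes per direction with the smallest p were named, plus PLAU, PLAUR, RECK, FOSL1 and the ADAMTS-like genes tested. COL1A2, ETS1, ACAN, NCAN and BCAN were added with their values in view. The members and lists were chosen with earlier results of these data known. Coordinates are 1-based, from GENCODE 29 on hg38.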

Additional observations from a re-analysis of the deposited data

How the results depend on the processing

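All 11 called members kept direction and call with DESeq2 size factors, upper-quartile factors, library size alone, DESeq2, no count filter and no robust estimation. The limma fit to log2(FPKM + 1) without a filter gave 642 genes higher and 717 lower, 0 MMP members lower (2 at unadjusted p under 0.05), 1 ADAMTS member lower, 0 ADAMTS (0 unadjusted) and 0 TIMP members higher (1 unadjusted), and 4 list members higher and 4 lower. With the filter, 0 ADAMTS members were higher (0 unadjusted; ADAMTS18 was under the FPKM filter) and 7 list members, with either pseudocount; with 0.1 added, 1236 genes were higher. The replicate block also left 0 ADAMTS members higher (1 unadjusted, ADAMTS18, edgeR adjusted p = 0.0515), ended the TIMP1 call, kept the other 9, and gave 1706 genes higher and 1630 lower; replicate numbers share no stated origin and deviations correlated at -0.018 between groups. Leaving out 1 library gave 567 to 3725 genes higher and 533 to 3722 lower, 1 to 4 MMP members higher and 0 to 3 lower, 0 to 1 ADAMTS members higher and 1 to 3 lower, 0 to 1 TIMP members higher and 2 to 3 lower, and 3 to 26 list members higher and 4 to 20 lower. Some members short of the threshold changed sign: with library size alone ADAMTS12 was -0.006 and MMP16 -0.010, and with 1 library left out ADAMTS12 ran from -0.073 to 0.199, ADAMTS4 from -0.008 to 0.627, ADAMTS6 from -0.216 to 0.021, MMP7 from -0.186 to 0.385 and MMP11 from -1.16 to 0.311. The cause was not tested. The SE was 0.70 to 1.23 for MMP7, MMP9, MMP25 and ADAMTS18, which had few counts.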

Other observations

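The deposited counts and FPKM values of a gene imply a length. Relative to the median of tested genes in each library, this implied length moved by more than 0.1 on the log2 scale between groups for 3 of 21 members with at least 50 counts per library. ADAMTS12 had implied relative lengths of 2.08 and 2.10 in shMAGED2 libraries and 2.61 and 2.59 in shCON libraries. Its log2 change was 0.06 from counts and 0.31 as a ratio of mean FPKM. ADAMTS4 shifted by 0.18 and MMP17 by -0.13 on the same scale. No other member of the 21 shifted by more than 0.1. How the authors' FPKM weighs isoforms was not tested.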
